A study of Caenorhabditis elegans with 2 samples.

Results

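The cytosolic ribosomal protein genes of Caenorhabditis elegans were taken as the protein-coding genes whose name is rpl- or rps- followed by a digit. The annotation held 78 of them among 19973 nuclear protein-coding genes, with 47 rpl genes of the large subunit and 31 rps genes of the small subunit. Their promoters were examined in chromatin immunoprecipitation sequencing (ChIP-seq) lists of LET-607, from 1 group of 2 biological replicates of whole worms. The worms were strain YL651, which carries let-607(tm1423), unc-119(ed3) III and the integrated array vrIs121, a LET-607 fosmid with unc-119(+) whose product has a C-terminal GFP-FLAG tag. Mixed-sex populations started from starved, bleached L1 larvae were collected as young adults at 49.5 hours, chromatin was sheared to 200 to 800 bp, and the tagged protein was precipitated with an antibody to GFP. All worms carried the mutation and the array, and no untagged group was analysed here. The lists therefore give positions that the authors scored with a control, and no contrast of conditions. Whole worms pool every tissue and both sexes, so signal in few cells and weak signal in many cells cannot be told apart.

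Ribosomal proteins coat the ribosomal RNA of the large subunit, which forms peptide bonds, and of the small subunit, which decodes the messenger RNA. Cells make them in nearly equal amounts, and their genes are among the most highly transcribed in growing animals. LET-607 is a basic leucine zipper factor of the CREB3 family, whose mammalian members are known as membrane-bound regulators of secretory pathway genes.

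A gene was called bound when the summit of a region in the authors' reproducible list fell within a promoter window, which reached 1000 bp upstream and 200 bp downstream from each annotated start. That list was thresholded by the irreproducible discovery rate (IDR) and held 1488 regions, which were the strongest of the 30000 pooled regions, and 795 of them had a summit in a promoter window. Of the 78 ribosomal protein genes 26 (33.3%) were bound, against 958 of 19973 protein-coding genes (4.8%). The large subunit had 15 bound genes of 47 (31.9%) and the small subunit 11 of 31 (35.5%). The authors label the pooled list as peaks and background for input to IDR. A summit in it, called a candidate summit below, therefore need not mark binding. At any pooled signal, 67 of the 78 had a summit in the window (85.9%), against 38.9% of all protein-coding genes. Among genes with such a candidate summit, 38.8% of the ribosomal protein genes were bound, against 12.3% of all.

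The replicates gave nearly the same counts when each was reduced to its own 1488 strongest regions. Replicate 1 had 26 ribosomal protein genes bound (33.3%), against 4.71% of all protein-coding genes, and replicate 2 had 27 (34.6%), against 4.82% of all. Of the 78, 24 (30.8%) were bound in both of these lists, against 3.47% of all protein-coding genes. No test was made, because the design has a single group and each count is over genes of the same libraries.

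**Figure D1:**
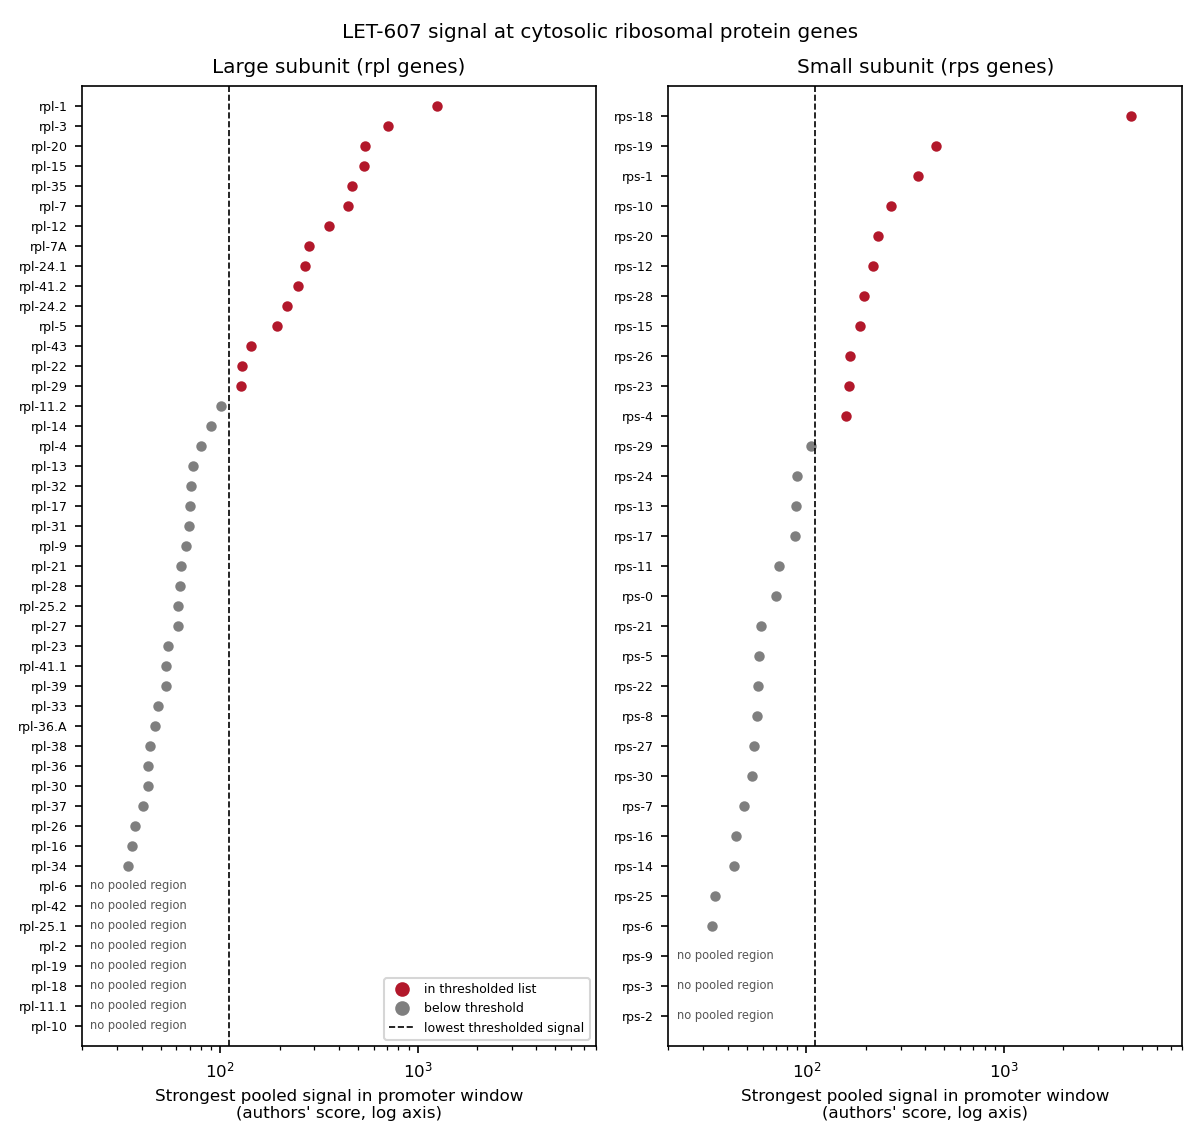
Strongest pooled signal in the promoter window of each of the 78 ribosomal protein genes (horizontal log axis, the authors' score), with rpl genes on the left and rps genes on the right. Red points are the 26 bound genes, which run from rpl-29 at 128 up to rps-18 at 4424, grey points are below the threshold, and 11 genes have no pooled region.

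Most other lists of the translation machinery were bound at a share near the 4.8% of all protein-coding genes. None of 6 further cytosolic ribosome genes outside the naming rule was bound, which were the stalk genes rla-0, rla-1 and rla-2, the ubiquitin fusion genes ubq-2 and ubl-1, and the scaffold gene rack-1. These 6 had 4 genes with a pooled summit. Mitochondrial ribosomal protein genes had 2 of 70 bound (2.86%), mrps-21 at a signal of 162 and mrpl-23 at 155, with summits 965 and 978 bp upstream. Genes of ribosome assembly and rRNA synthesis had 2 of 27 bound (7.41%), pro-1 at 134 and the polymerase subunit gene rpac-19 at 132. Initiation factor genes had 2 of 34 bound (5.88%), eif-3.C at 231 and the cap-binding factor gene ife-2 at 159.9. At any pooled signal all of these lists were above the 38.9% of all protein-coding genes. The mitochondrial genes had 64.3%, the assembly genes 59.3%, the initiation factor genes 67.6% and the 6 further ribosome genes 66.7%. The ribosomal protein genes had 85.9%.

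Elongation factor genes were bound at 7 of 8 (87.5%), against 4.8% of all protein-coding genes. The list held iff-2, which encodes an elongation factor of the hypusine-containing kind, at 1546, the translocation factor gene eef-2 at 763, eef-1G at 402, and the aminoacyl-tRNA delivery factor genes eef-1A.2 at 269 and eef-1A.1 at 186. The exchange factor subunit genes eef-1B.1 and eef-1B.2 followed at 115 each, and iff-1 was the unbound one. Some of these regions had another gene in reach. These genes were F54C9.14 at iff-2, clsp-1 at eef-2, ctf-4 at eef-1G, rfc-4 at eef-1A.1 and aco-2 at eef-1B.1. In the strongest regions of replicate 1 alone 5 of the 8 were bound, and in those of replicate 2 alone 6.

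**Figure D2:**
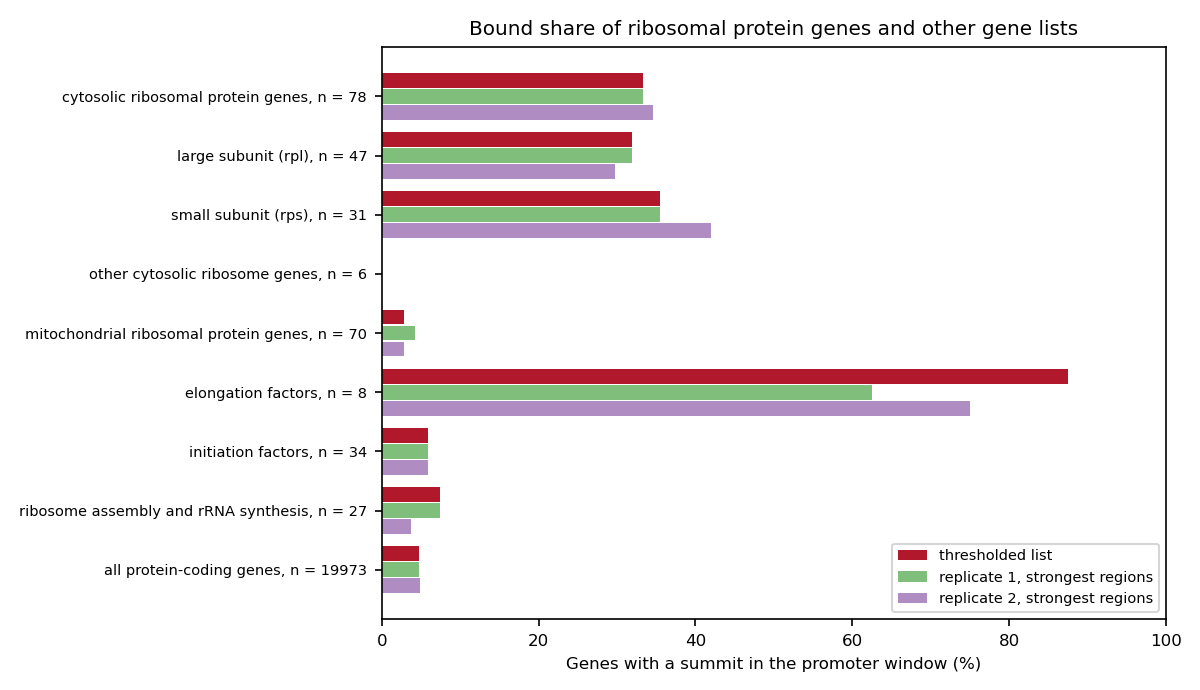
Share of genes with a summit in the promoter window (horizontal axis, %), for the ribosomal protein genes, their subunits and the other gene lists, in the thresholded list and in the 1488 strongest regions of each replicate. The ribosomal protein genes reach 33.3%, 33.3% and 34.6% in the 3 lists, and all protein-coding genes stay at 4.8%, 4.71% and 4.82%.

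The signal of a region is the authors' peak caller's score, and it was compared only within a list. In the thresholded list it ran from 111 to 6859 with a median of 158, and every bound gene lies in that range by the rule. Bound ribosomal protein genes had a median signal of 259, with a range of 128 to 4424, against a median of 174 over all bound genes. The large subunit median was 281 and the small subunit median was 217. The rpl-24.1 and rps-10 genes shared a region and rpl-1 had 2, so the 26 bound genes had 26 regions, with a median of 240.2 against 169 for the other 769 promoter regions. Member regions made up 1 of the 18 promoter regions down to rank 20, 4 of the next 57 down to rank 100, 14 of the next 251 down to rank 500, 5 of the next 234 down to rank 1000 and 2 of the last 235. The share was thus 5.56%, 7.02% and 5.58% in the 3 upper bands and 2.14% and 0.851% in the lower ones.

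The strongest member region stood at rps-18, which encodes a protein of the head of the small subunit. It spanned chrIV:14824744-14825349 and ranked 5 of 1488, with a signal of 4424 pooled, 2021 in replicate 1 and 2415 in replicate 2. Its summit was 669 bp upstream of rps-18 and lay in the annotated 5′ UTR of the divergent gene sec-61.A, the channel subunit of the protein translocon. It was 680 bp upstream of the shorter sec-61.A transcript and 254 bp downstream of the start of the longer one, which is the nearest start of all. Binding at rps-18 and at sec-61.A cannot be told apart here.

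The next regions by signal whose sequence is shown were at large subunit genes, and at rps-1. The rpl-3 gene, whose protein reaches toward the peptidyl transferase centre, had a region at chrIII:3867428-3867709 with a signal of 709 pooled, 329 in replicate 1 and 386 in replicate 2. No other gene shared it, and its summit was 284 bp upstream of the start. The region of rpl-20 at chrIV:4749954-4750191 had a signal of 543 pooled, 263 in replicate 1 and 278 in replicate 2, and its summit was 289 bp upstream of rpl-20 and 173 bp upstream of the divergent gene Y17G9B.5. At rpl-15 the region chrIV:654799-655037 had a signal of 535 pooled, 242 in replicate 1 and 286 in replicate 2, between rpl-15 at 349 bp and K11H12.8 at 465 bp.

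The rpl-35 gene, whose protein lies near the exit of the peptide tunnel, had the region chrIII:7854579-7854782 to itself. Its signal was 464 pooled, 209 in replicate 1 and 248 in replicate 2, with the summit 455 bp upstream. The rps-1 region at chrIII:4475549-4475748 had a signal of 369 pooled, 175 in replicate 1 and 189 in replicate 2. It lay 263 bp upstream of rps-1 and 505 bp upstream of the divergent gene ifet-1, which encodes a translational repressor that binds the cap-binding factor. All of these summits were intergenic, and each replicate placed them within 100 bp of the pooled position.

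The summits of these regions, with 50 bp on each side, are shown because 2 short words recur in them, and 4 weaker regions that hold the words were added after they were seen. The sequences are the plus strand of ce11 (WBcel235), read 5′ to 3′ from the RefSeq FASTA of the same assembly, and none overlaps an annotated UTR. Capitals mark TACGGTA or its reverse complement TACCGTA, and ACACTCG or its reverse complement CGAGTGT. The windows are chrIII:3867520-3867620 for rpl-3, chrIV:4750017-4750117 for rpl-20, chrIV:654875-654975 for rpl-15, chrIII:7854629-7854729 for rpl-35 and chrIII:4475605-4475705 for rps-1. The weaker ones are chrII:8569460-8569560 for rpl-5, chrIV:12391279-12391379 for rps-23, chrII:14154525-14154625 for rpl-43 and chrIV:13881937-13882037 for rpl-29.
rpl-3: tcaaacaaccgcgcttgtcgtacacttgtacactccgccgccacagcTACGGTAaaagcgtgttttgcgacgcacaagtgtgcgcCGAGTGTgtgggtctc
rpl-20: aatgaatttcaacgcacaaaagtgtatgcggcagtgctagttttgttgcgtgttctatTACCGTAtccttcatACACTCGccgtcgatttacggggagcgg
rpl-15: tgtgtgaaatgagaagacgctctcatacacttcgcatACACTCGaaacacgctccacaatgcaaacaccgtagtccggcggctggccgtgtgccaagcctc
rpl-35: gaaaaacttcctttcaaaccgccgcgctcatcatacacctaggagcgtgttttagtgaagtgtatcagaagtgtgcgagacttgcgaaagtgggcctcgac
rps-1: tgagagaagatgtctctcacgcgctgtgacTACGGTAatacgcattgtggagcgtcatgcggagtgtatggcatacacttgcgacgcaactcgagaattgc
rpl-5: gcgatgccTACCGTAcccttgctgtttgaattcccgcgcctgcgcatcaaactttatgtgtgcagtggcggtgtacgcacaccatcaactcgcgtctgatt
rps-23: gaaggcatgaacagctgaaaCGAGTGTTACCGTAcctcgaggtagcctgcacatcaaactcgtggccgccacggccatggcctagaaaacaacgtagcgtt
rpl-43: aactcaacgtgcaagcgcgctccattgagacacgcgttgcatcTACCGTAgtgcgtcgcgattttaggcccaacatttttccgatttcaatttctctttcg
rpl-29: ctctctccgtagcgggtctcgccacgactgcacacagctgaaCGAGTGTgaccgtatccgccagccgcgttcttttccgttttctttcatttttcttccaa

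TACGGTA was in 9 of the 26 member windows (34.6%), against 18 of the 769 windows at other promoter regions (2.34%). ACACTCG was in 8 of 26 (30.8%), against 12 of 769 (1.56%). At least 1 of the words was in 12 member windows (46.2%), against 29 of the others (3.77%), and 5 member windows held both. The 12 were at rps-18, rpl-3, rpl-20, rpl-15, rps-1, the rpl-24.1 and rps-10 pair, rps-20, rpl-24.2, rpl-5, rps-23, rpl-43 and rpl-29. The words were chosen by reading these same windows, so the contrast is a description that the choice itself favours. Over the windows printed above and that of rps-18, the median distance of the word from the summit was 17 bp for TACGGTA and 19.5 bp for ACACTCG, and 39 bp at most. The search reached only 50 bp on each side, so the window itself bounds these distances. They do not show that the words are placed at the summit. In the rpl-3 window TACGGTA was centred on the summit itself, at chrIII:3867567-3867573. The rpl-35 window holds neither word.

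In the 500 bp upstream of the start, TACGGTA was found at 10 of the 26 bound and 7 of the 52 unbound ribosomal protein genes (13.5%), against 7.24% of all protein-coding genes. ACACTCG was found at 10 of the 26 bound and 7 of the 52 unbound ones, against 2.62% of all. Most of the summit windows from which the words were chosen lie within these 500 bp. The choice therefore favours the contrast of bound and unbound members too, and it is no separate evidence. At candidate summits below the threshold, TACGGTA was in 2 of 39 member windows, against 1.27% of 6049 windows at other genes, and ACACTCG in 1 of 39, against 0.694%. A match says only that these letters are in the window.

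Words known from bZIP factors were also counted. TGACG was in 1 of the 26 member windows (3.85%), at rps-1 on the minus strand of chrIII:4475657-4475661, against 200 of 769 at other promoter regions (26.0%). ACGT was in 7 (26.9%), against 38.1%. CACGTG, TGACGTGG and TGACGTCA were in 0 of the 26, against 8.58%, 2.34% and 0.910%. At such shares 0 of 26 does not set the members apart for any of these. In the 500 bp upstream of the start ACGT was at 69.2% of the bound members, against 66.7% of all protein-coding genes, and at candidate summits below the threshold it was in 14 of 39 member windows (35.9%), against 22.5%. TGACG was upstream at 26.9% of the bound and 28.8% of the unbound members, against 40.7% of all protein-coding genes. At candidate summits below the threshold TGACG was in 6 of 39 member windows (15.4%), against 14.6%. ACGT is part of CACGTG, TGACGTGG and TGACGTCA, and TGACG is part of TGACGTGG and TGACGTCA. TGATAA, the word of GATA factors, was in 2 (7.69%), against 14.4%. GAGAGAGA and AGACGCAG were in 0, against 2.99% and 6.50%, shares at which 0 of 26 does not set the members apart either. All were searched on both strands. The median GC content of the windows was 52.0% at members and 46.5% at the other promoter regions, and its part in the word counts was not tested.

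On chromosome I, rpl-1 had the strongest region, at chrI:2876402-2876874 and rank 22. Its signal was 1249.7 pooled, 496 in replicate 1 and 756 in replicate 2, and its summit was 293 bp upstream of rpl-1 and 331 bp upstream of the divergent gene Y71F9AL.9. A second, overlapping region with its own summit ranked 490 with 195 pooled, 55.9 in replicate 1 and 56.2 in replicate 2, nearer to Y71F9AL.9 at 127 bp than to rpl-1 at 497 bp. In each replicate alone this second summit fell outside the 1488 strongest regions, at rank 1563 in replicate 1 and rank 1889 in replicate 2.

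The rps-19 region, rank 109, had a signal of 453 pooled, 212 in replicate 1 and 235 in replicate 2, and lay 277 bp from rps-19 and 168 bp from the divergent DNA damage response gene hsr-9. The rpl-7 region, rank 112, had 446 pooled, 187 in replicate 1 and 253 in replicate 2, and lay 353 bp from rpl-7 and 628 bp from rab-11.1, which encodes a small GTPase of recycling endosomes. A single region between rpl-24.1 and rps-10 had a gene of each subunit in reach, at 287 and 323 bp, with 269 pooled, 113 in replicate 1 and 149 in replicate 2. It was the one bound region between divergent members of the list.

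The rpl-41.2 gene encodes one of the smallest ribosomal proteins, and its region had 249 pooled, 109 in replicate 1 and 134 in replicate 2, with no other gene in reach. The region at rps-20 had 232 pooled, 109 in replicate 1 and 118 in replicate 2, and lay 237 bp from rps-20 and 160 bp from ekl-4. At rpl-24.2 the signal was 219 pooled, 115 in replicate 1 and 96.9 in replicate 2, and the summit, 118 bp upstream, lay in an intron of C03D6.1. The rps-15 region had 186 pooled, 100.4 in replicate 1 and 72.1 in replicate 2, almost midway between rps-15 at 406 bp and F36A2.9 at 375 bp. For rps-26, whose protein lines the exit path of the messenger RNA, the signal was 167 pooled, 74.2 in replicate 1 and 87.3 in replicate 2, with the summit 438 bp from rps-26 and 19 bp from tmem-107, a gene of the ciliary transition zone.

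The remaining bound genes of the large subunit were on other chromosomes. The rpl-12 gene encodes a protein at the base of the ribosomal stalk, and its region had 356 pooled, 174 in replicate 1 and 180.3 in replicate 2. The summit was 21 bp upstream of rpl-12, the shortest distance of any member, and 372 bp upstream of lin-54, which encodes a DNA-binding subunit of the DREAM complex. The rpl-7A region had 281 pooled, 144 in replicate 1 and 139 in replicate 2, at 65 bp from rpl-7A and 189 bp from set-21. At rpl-5, whose protein carries the smallest ribosomal RNA into the large subunit, the signal was 195 pooled, 91.4 in replicate 1 and 102 in replicate 2, almost midway between rpl-5 at 417 bp and the cuticle collagen gene col-38 at 422 bp.

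Among the weakest regions, rpl-43 had 143 pooled, 56.5 in replicate 1 and 85.4 in replicate 2. Its summit was 719 bp from rpl-43, the longest distance of any member, and 202 bp from Y48B6A.1. The rpl-22 region had 129 pooled, 64.7 in replicate 1 and 67.7 in replicate 2, at 299 bp from rpl-22 and 138 bp from the securin gene ify-1. The rpl-29 region had 128 pooled, 68.6 in replicate 1 and 59.8 in replicate 2, at 238 bp from rpl-29 and 747 bp from thoc-7, an mRNA export gene on the same strand. These 2 ranked 1104 and 1112 of 1488 and were the bound members closest to the threshold, with other regions between them and its lower end at 111.

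In the small subunit, the rps-12 region had 217 pooled, 109 in replicate 1 and 103 in replicate 2, at 171 bp from rps-12 and 122 bp from the kinetochore gene ska-3. The rps-28 region had 195 pooled, 87.0 in replicate 1 and 108 in replicate 2, at 438 bp from rps-28 and 857 bp from Y41D4B.4 on the same strand. At rps-23, whose protein reaches into the decoding centre, the signal was 164 pooled, 70.5 in replicate 1 and 89.8 in replicate 2. That summit lay almost midway between rps-23 at 276 bp and dpm-3 at 258 bp, a gene of dolichol-phosphate mannose synthesis. The rps-4 region, with no other gene in reach, had 159 pooled, 66.1 in replicate 1 and 84.8 in replicate 2, at 281 bp.

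**Figure D3:**
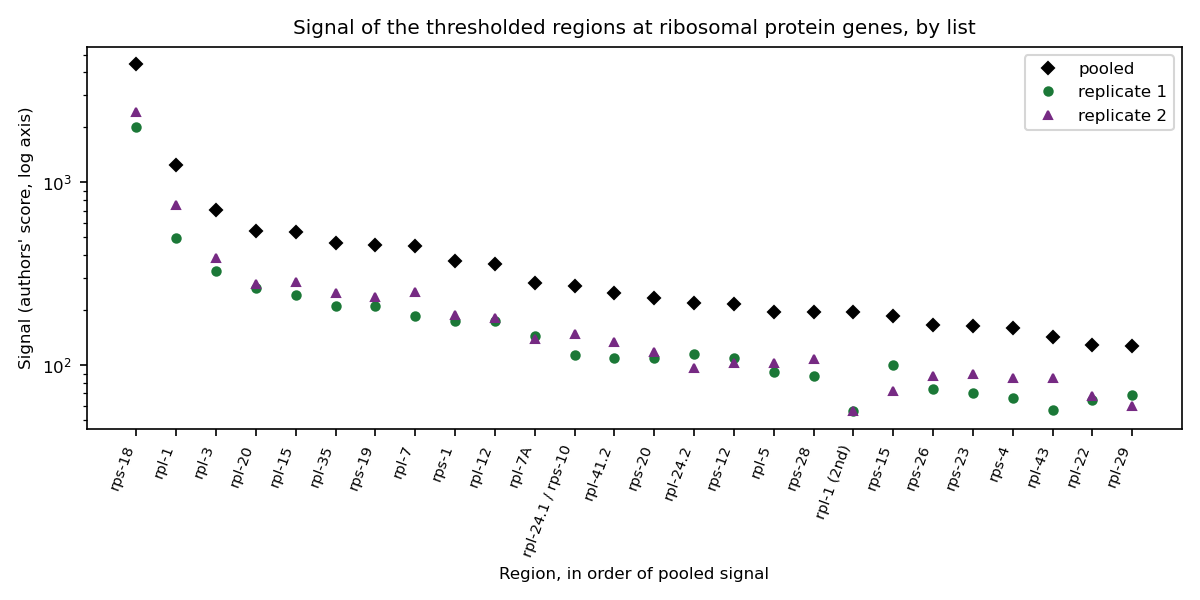
Signal (vertical log axis, the authors' score) of the 26 thresholded regions at ribosomal protein genes, in order of pooled signal, in the pooled list (diamonds), replicate 1 (circles) and replicate 2 (triangles). The order is much the same in the 3 lists, and the second rpl-1 region has the lowest replicate values, 55.9 and 56.2.

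All 26 regions were found in both replicates, with replicate summits within 100 bp of the pooled one. The median shift was 3.5 bp in replicate 1 and 4.5 bp in replicate 2, with at most 74 and 29 bp, both at rpl-22. Within the 1488 strongest regions of each replicate stood 24 of the 26 in replicate 1, 24 in replicate 2 and 23 in both. Of the other promoter regions 80.0% did so in replicate 1 and 85.0% in replicate 2. Over the 26 regions the replicate signals had a Spearman correlation of 0.950, as a description, since the regions share their libraries and were selected for being reproducible.

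The summits at ribosomal protein genes lay at a narrow range of distances from the start. The median was 288 bp upstream, with quartiles of 244 and 393 bp, and 20 of 26 (76.9%) fell 200 to 500 bp upstream, a range chosen after the values were seen. Of the other 932 bound genes 325 (34.9%) fell in that range, and their median was 265.5 bp. Just 4 members had a summit closer than 200 bp and 0 had one at or past the start, against 378 other bound genes (40.6%) closer than 200 bp, 74 of them at or past the start. The bin from 200 to 300 bp held 12 members (46.2%), against 146 other bound genes (15.7%). Both subunits had this pattern, with a median of 289 bp and 11 of 15 genes in the range for rpl, and 281 bp and 9 of 11 for rps.

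**Figure D4:**
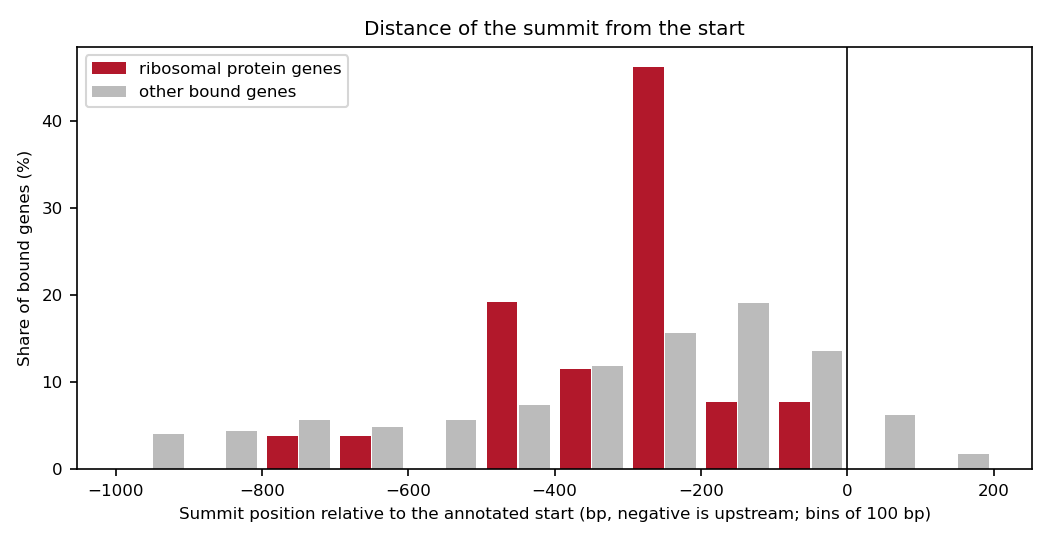
Share of bound genes (vertical axis, %) by position of the summit relative to the annotated start (horizontal axis, bp, negative is upstream, bins of 100 bp), for the 26 bound ribosomal protein genes (red) and the other 932 bound genes (grey). The red bars peak at 46.2% between 200 and 300 bp upstream, and no red bar lies past the start.

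Candidate summits below the threshold lay at a like median distance. The 41 ribosomal protein genes with a candidate summit alone had a median distance of 281 bp upstream, and 23 of them (56.1%) fell 200 to 500 bp upstream, against 274 bp and 24.8% of 6767 other unbound genes. Their median pooled signal was 57.0, with a range of 33.2 to 105, against 48.5 for the other unbound genes.

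The unbound member with the highest signal was rps-29, at 105 pooled, 39.9 in replicate 1 and 79.4 in replicate 2, which was rank 1667 pooled, 3981 in replicate 1 and 906 in replicate 2. It was followed by rpl-11.2 at 100.3 pooled, 67.3 in replicate 1 and 47.9 in replicate 2, and by rpl-14 at 90.3 pooled, 53.1 in replicate 1 and 41.0 in replicate 2. The next were rps-24 at 90.1 pooled, 38.7 and 47.7 in the replicates, rps-13 at 89.0 pooled, 31.2 and 63.9, and rps-17 at 87.3 pooled, 33.8 and 45.9. Each value is that of the strongest region in the gene's window in that list, which need not be the same site. By these values 3 of the 6 genes, rps-29, rpl-11.2 and rps-13, were within the strongest 1488 regions of 1 replicate alone. At rps-29 and rps-13 the replicate 1 summit lay more than 100 bp from the pooled and replicate 2 summits. For these 2 genes the replicate values therefore do not compare 1 site. At rpl-11.2 both replicate summits lay within 100 bp of the pooled one.

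No pooled summit fell in the window of 11 members, which were rpl-2, rpl-6, rpl-10, rpl-11.1, rpl-18, rpl-19, rpl-25.1, rpl-42, rps-2, rps-3 and rps-9. In single replicates, rpl-18 had a region of 41.5 in replicate 1 at rank 3557, and rpl-11.1, rpl-19 and rps-2 had regions of 23.1, 22.6 and 23.3 in replicate 2. Absence from a list is not a measured level of 0. Genes that share a number and differ by a dot suffix did not always share a state. Both rpl-24.1 and rpl-24.2 were bound, rpl-41.2 was bound at 249 while rpl-41.1 had 53.2 pooled, rpl-11.2 had 100.3 pooled while rpl-11.1 had no pooled region, and rpl-25.2 had 61.4 pooled while rpl-25.1 had none. How alike these genes are in sequence was not examined here.

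Most of the bound regions had more than 1 gene in reach. Of the 26, 21 (80.8%) lay in the promoter windows of at least 2 genes, against 180 (23.4%) of the other 769 promoter regions. In 19 (73.1%) the genes in reach were on both strands, against 166 (21.6%) of the others. The 19 include the rps-18 summit, which lies within the longer sec-61.A transcript, and count both rpl-1 regions. The 5 with a single gene were those of rpl-3, rpl-35, rpl-41.2, rpl-24.2 and rps-4. Among starts whose window held the summit, a member had the nearest one in 16 of 26 regions, and over all annotated starts in 15, since the longer sec-61.A transcript starts nearest to the rps-18 summit. When each summit counted only for the nearest of the starts whose window held it, 16 members were bound (20.5%), 12 of the large and 4 of the small subunit, against 3.82% of all protein-coding genes. Without rps-18, whose summit is nearest to sec-61.A over all starts, these were 15 members and 3 of the small subunit.

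Shared promoters are common in this gene family whether bound or not. A divergent neighbour within 1000 bp was present at 47 of the 78 (60.3%), against 18.2% of all protein-coding genes. Of these 47, 19 were bound (40.4%), and of the 31 without such a neighbour 7 were (22.6%), against 8.73% and 3.92% of all protein-coding genes with and without one. Since a summit between divergent genes counts for both, the larger share at divergent genes includes regions that may serve the neighbour. The divergent pairs rpl-36 with rps-14 and rpl-39 with rps-30 shared candidate summits below the threshold, at 43.2 and 53.2.

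Other features of these promoters were described from the annotation and the sequence. The summit was intergenic in 24 of 26 member regions (92.3%), against 72.7% of all 795 promoter regions, and a tRNA gene lay within 500 bp of 0 of the 26, against 34 of 795 (4.28%). The letters TTTCAG, the worm splice acceptor consensus, ended just before the first annotated start of 38 of the 78 members (48.7%), against 12.3% of all protein-coding genes, and of 16 of the 26 bound ones. Such starts can be trans-splice sites, so distances are to the annotated start and not to the start of transcription. A gene on the same strand ended within 300 bp upstream of 4 members (5.13%), against 12.6% of all protein-coding genes. Of those 4, 0 were bound, against 3.62% of all genes with such a neighbour, too few to read a difference from.

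Small nucleolar RNAs guide rRNA modification and often sit in introns of ribosomal protein genes. They lay inside 13 of the 78 members (16.7%), against 0.796% of all protein-coding genes. Of these host genes 7 were bound (53.8%), against 19 of the 65 others (29.2%). Outside the family 27 of 146 host genes were bound (18.5%). Over all protein-coding genes 21.4% of the hosts were bound, against 4.66% of the genes that are not hosts. By chromosome, 10 of 23 members were bound on I, 3 of 10 on II, 4 of 18 on III, 9 of 17 on IV, 0 of 8 on V and 0 of 2 on X. The share of all protein-coding genes bound was 6.01% on I, 4.09% on II, 6.67% on III, 4.75% on IV, 2.66% on V and 6.55% on X.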

How the data were processed

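The deposited region lists were made by the authors from 2 replicate alignments and a control alignment on ce11, per the text deposited with them. The thresholded list was derived from the replicate and pooled lists by IDR. The deposited signal is a score of the authors' peak caller, and its formula was not stated in the sources used. The deposited −log10 q-value is the authors' own, and 766 thresholded regions (51.5%) share its ceiling, so it ranked nothing here. Aligner, caller and versions were not given in the sources used here. These lists hold no read counts and depth is unknown. Control reads were not analysed here.

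Python 3.11.15, pandas 2.3.3 and numpy 2.4.6 were used. Genes and starts came from Ensembl release 115 of WBcel235, without the mitochondrial genome, and sequence came from RefSeq. Motifs were counted on both strands of windows of 50 bp on each side of the summit. Linking of summits to starts was tested on simulated data. Counts, shares and medians were set beside those of all protein-coding genes, with no test, since there is a single group. Members and lists were chosen with earlier results of these data known. Named genes were the bound members, the 6 unbound ones with the highest signal, pairs with a dot suffix, neighbours in the windows and bound genes of the comparison lists. The 11 members without a pooled summit, the unbound genes of the comparison lists and the unbound pairs that share a promoter were named after their values were seen. Sequences were to be those of the 6 strongest member regions off chromosome I, of which that of rps-18 lies in an annotated UTR and is not printed. Listed names with no match in the annotation (eft-2, eft-3, eft-4, nol-1, nol-2, nol-5 and rrbs-1) were left out. Alternatives changed the window, the starts, the list, the matching rule and the summit window.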

Additional observations from a re-analysis of the deposited data

How the results depend on the processing

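No paired analysis was possible because only 1 group exists. The 26 bound ribosomal protein genes (all protein-coding genes 4.8%) became 24 with a window of 500 bp upstream to 100 bp downstream (rps-18 and rpl-43 lost, all genes 3.63%) and 23 in the strongest 744 regions (rpl-22, rpl-29 and rpl-43 lost, all genes 2.79%). They were 26 with 2000 to 500 bp (6.68%), with the first start of each gene (4.31%), with any overlap (5.39%) and without regions near tRNA genes (4.6%). Without replicate 1 they were 27 (rpl-29 lost, rps-13 and rps-29 gained, all genes 4.82%), and without replicate 2 they were 26 (rpl-43 lost, rpl-11.2 gained, all genes 4.71%). They moved to 16 with the nearest start in reach alone (3.82%) and to 67 in the pooled list at any signal (38.9%). For the large subunit the pooled list gave 39, and for the small subunit it gave 28. With the nearest start in reach alone the large subunit had 12 bound (25.5%) and the small subunit 4 (12.9%), so the order of the subunits turned. Mitochondrial ribosomal protein genes moved to 0 with the 500 to 100 bp window, to 4 with 2000 to 500 bp, to 1 with the nearest start in reach alone, to 1 in the strongest 744 regions and to 45 in the pooled list. In the pooled list their share was 64.3%, above the 38.9% of all genes, while in the thresholded list it was below that of all genes. Assembly genes moved to 1 without replicate 1, to 0 in the strongest 744 regions and to 16 in the pooled list (59.3%). Initiation factor genes moved to 5 with 2000 to 500 bp, to 4 with any overlap and to 23 in the pooled list (67.6%). Both pooled shares were also above the 38.9% of all genes. Elongation factor genes were 6 without replicate 1 and 5 without replicate 2. With 100 bp on each side of the summit ACGT was in 11 member windows (42.3%), against 51.6% of all thresholded windows. TGACG was then in 3 member windows (11.5%), against 34.1%. With 50 bp on each side the shares of all thresholded windows were 34.1% for ACGT and 21.8% for TGACG. The cause of these moves was not tested. Depth is unknown, so it could not be used to judge the 11 members without a pooled region.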
